A study of Mus musculus with 8 samples.

Results

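The intergenic CpGs that lie far from genes were taken as the autosomal cytosines more than 50 kb from the body of any curated RefSeq transcript of the mm10 mouse genome. The rule used positions only, and it kept 263534 cytosines at 192753 CpGs, out of 2087852 autosomal cytosines and 2130064 cytosines on chromosomes 1 to 19, X and Y. Their distance from the nearest transcript had a median of 129 kb and reached 1986 kb, with 100159 cytosines at 50 to 100 kb, 96316 at 100 to 250 kb and 67059 above 250 kb. These stretches held 31.2% of the sequenced autosomal bases but only 12.6% of the measured autosomal cytosines. Reduced representation bisulfite sequencing (RRBS) reads the ends of fragments cut by MspI at CCGG and so favours CpG-rich DNA. How much this contributes to the lower share was not tested. The density was 506 cytosines per Mb at 50 to 100 kb, 369 at 100 to 250 kb and 231 above 250 kb, against 871 over all autosomes.

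The libraries came from cells isolated at postnatal day 6 (PD6) from testes of C3H/HeN male offspring and labelled type A spermatogonia. They were selected with an antibody to CD49f (Itga6), with 8 testes of 4 mice pooled into every sample. The control group (4 samples) was born to dams given tap water, and the arsenic group (4 samples) to dams whose water held sodium arsenite at 85 ppm between gestational days 8 and 18. The comparison asks whether exposure in the womb altered DNA methylation in the germ cells of the sons, here in the DNA farthest from genes. The label was checked on promoters known to lack methylation in male germ cells. Of 12 germline genes, silenced by promoter methylation in somatic tissues, 10 were measured, at 83.5% ± 2.31 (SD, n = 4) in the control group and 83.3% ± 0.741 (SD, n = 4) in the arsenic group, and the promoter averages ran from 60.7% to 94.9%. Of 14 maternally imprinted genes, 11 were measured, at 53.1% ± 1.41 and 51.1% ± 2.81 (SD, n = 4 each), with 10 of 11 at 20% or more and the lowest at 1.47%. These levels go against the label in all 8 samples, so the cells are called here by their libraries, and what their makeup contributes to the results was not tested. The study gives other evidence for the label. It reports higher Itga6 and Gfra1 RNA in these cells than in germ cells isolated from testes at gestational day 18. In its principal component analysis of methylation, the samples clustered by stage. Depth was 96428439 to 133406260 read counts over all cytosines per sample, and the median coverage of the far cytosines was 35 to 50 reads. The level at 165 mitochondrial cytosines, a read-out of unconverted or miscalled bases, was 1.77 to 2.07%.

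In mammalian DNA most CpGs away from regulatory sequence carry a methyl group, which maintenance enzymes copy onto the new strand after replication. CpG islands and many active enhancers are kept free of it, and in gene deserts, long stretches without genes, methylation also covers the retrotransposons and other repeats that make up much of the sequence. In the male germ line methylation is erased and then laid down again around birth.

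Many far cytosines were copies of the same sequence, and these copies let a CpG be compared with itself at many places. The far cytosines fell into 151774 different contexts of 30 bases, of which 1102 occurred at 10 or more cytosines and took 15.4% of the members. The 5 most frequent contexts (A to E), and a context that ranked 9 and was chosen after its values were seen (F), are given 5′ to 3′ with the CpG in capitals. Either strand of such a CpG could be the one measured.
Context A: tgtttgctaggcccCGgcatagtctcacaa
Context B: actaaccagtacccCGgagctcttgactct
Context C: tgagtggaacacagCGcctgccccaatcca
Context D: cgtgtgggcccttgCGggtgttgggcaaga
Context E: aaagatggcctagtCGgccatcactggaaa
Context F: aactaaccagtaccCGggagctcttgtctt
In A, B and F the CpG sits in CCGG, the site that MspI cuts. In C, D and E it does not.

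The far CpGs also held clusters of cytosines with low methylation. The 150 bases with most CpGs are shown for the 4 clusters of low cytosines with the most CpGs outside ribosomal DNA, on the plus strand of mm10 with each CpG in capitals. They hold 17 to 29 CpGs each.
Chromosome 13 cluster, chr13:3358478-3358627: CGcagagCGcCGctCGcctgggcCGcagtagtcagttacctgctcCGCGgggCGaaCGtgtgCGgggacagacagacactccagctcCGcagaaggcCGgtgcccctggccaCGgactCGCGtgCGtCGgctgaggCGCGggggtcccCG
Chromosome 14 cluster, chr14:100284808-100284957: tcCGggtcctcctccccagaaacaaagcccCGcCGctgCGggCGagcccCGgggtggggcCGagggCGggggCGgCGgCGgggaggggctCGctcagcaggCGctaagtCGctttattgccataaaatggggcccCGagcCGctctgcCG
Chromosome 12 cluster, chr12:20196773-20196922: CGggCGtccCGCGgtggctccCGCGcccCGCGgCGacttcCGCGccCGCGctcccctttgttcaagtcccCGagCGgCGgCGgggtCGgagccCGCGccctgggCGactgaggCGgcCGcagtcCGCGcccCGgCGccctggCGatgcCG
Chromosome 10 cluster, chr10:120552470-120552619: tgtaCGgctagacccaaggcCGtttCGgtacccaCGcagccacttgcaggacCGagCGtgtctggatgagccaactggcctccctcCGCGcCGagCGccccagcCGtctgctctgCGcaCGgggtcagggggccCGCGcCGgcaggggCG

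Of the 8 cytosines named below for the size of their difference between groups, the 3 whose opposite strand was also measured are shown in the same way, with the tested CpG in capitals. The site on chromosome 12 was lower in the arsenic group and those on chromosomes 8 and 3 were higher. None of the 3 sits in CCGG, whereas the largest rise, on chromosome 9, does and is not shown.
Chromosome 12 hypoDMC, chr12:71778173-71778224: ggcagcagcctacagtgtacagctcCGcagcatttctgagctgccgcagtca
Chromosome 8 hyperDMC, chr8:117953988-117954039: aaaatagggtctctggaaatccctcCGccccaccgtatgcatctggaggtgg
Chromosome 3 hyperDMC, chr3:119946623-119946674: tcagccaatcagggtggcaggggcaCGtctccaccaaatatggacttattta

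The far cytosines were highly methylated, and their level rose with distance from genes. The average methylation level of the control samples was 74.34, 74.37, 74.78 and 74.55%, and that of the arsenic samples 74.49, 74.18, 74.08 and 74.23%. The groups overlapped, at 74.5% ± 0.203 and 74.2% ± 0.175 (SD, n = 4 each), and the difference of -0.266 points was not separated from the spread between samples (p = 0.114, two-sided exact permutation test, where 0.0286 is the smallest p that 4 against 4 samples allow). Intergenic cytosines up to 50 kb from a transcript averaged 52.2%, and those inside transcripts 49.95%. The far cytosines were above the near intergenic ones by 22.2 points ± 0.0939 (SD over 8 samples), in 8 of 8 samples (p = 0.00781, exact sign-flip permutation test, the smallest p that 8 samples allow).

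Level increased at each step outward. At 50 to 100 kb it was 71.1% ± 0.135 in the control and 70.8% ± 0.177 in the arsenic group, at 100 to 250 kb 74.3% ± 0.166 and 73.9% ± 0.196, and above 250 kb 79.9% ± 0.380 and 79.9% ± 0.148 (SD, n = 4 each). The step from the first to the second band was 3.16 points and that from the second to the third 5.82 points, each in 8 of 8 samples (adjusted p = 0.00781 for each, exact sign-flip permutation test over 3 contrasts). Both steps were larger than the spread between samples, which was 0.0520 and 0.221 points. The groups overlapped in every band, with differences of -0.343 (exact permutation p = 0.0571), -0.333 (p = 0.0857, exact) and -0.0534 points (p = 0.8286, exact), and none passed after adjustment over the bands, where the lowest value was 0.129 (permutation).

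**Figure D1:**
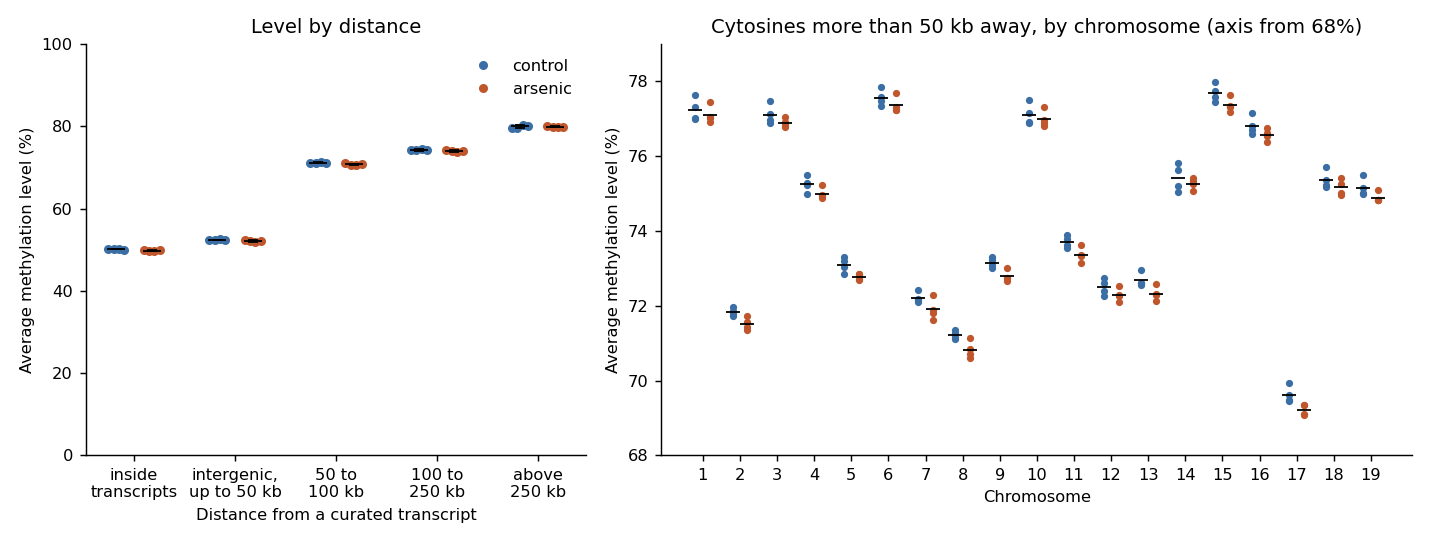
Left, average methylation level (%) of each of the 8 samples by distance from a curated transcript, with black bars for the mean ± SD of 4 samples; right, level of the far cytosines by chromosome, with a bar for each group mean and an axis that starts at 68%. Level rose from 49.95% inside transcripts to 79.9% above 250 kb, and chromosomes ranged from 69.4% to 77.5%.

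The rise with distance went along with the kind of sequence. Soft-masked bases, which the reference genome marks as repeats, held 29.8% of the cytosines at 50 to 100 kb, 39.3% at 100 to 250 kb and 61.4% above 250 kb. Soft-masked far cytosines averaged 84.0% and unmasked ones 67.6%. Within soft-masked sequence the 3 bands lay close together, at 83.1, 84.3 and 84.3%. Within unmasked sequence level still rose, from 65.8% to 67.5% and 73.0%, and the ranges over the 8 samples did not overlap between the bands (65.3 to 66.1%, 67.03 to 67.88% and 72.6 to 73.5%). These splits were described and not tested.

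Of the sequence classes compared, CpG-dense unmasked DNA, with at least 10 CpGs in 200 bases, differed most from its counterpart near genes. Such a density is typical of CpG islands, which in general mark promoters, but measures of an island were not applied to these cytosines. The far ones averaged 45.1%, with samples from 44.6 to 45.5%, and 34.8% of them were below 10%. The near intergenic ones averaged 9.07%, with samples from 8.82 to 9.27%, and 88.2% were below 10%. By band the far CpG-dense unmasked cytosines were at 43.9, 41.7 and 58.6%. The middle band, with 4557 of them, takes in the ribosomal DNA copy of chromosome 17. There the 443 cytosines covered in the span of a low cluster averaged 20.05%. Band levels of this class without that copy were not computed, so the order of the first and second bands is not interpreted. In CpG-poor unmasked sequence the far level was 69.4% against 58.6% near genes.

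Fewer far cytosines were free of methylation than near ones. Of the far cytosines 5.91% had a mean level below 10%, 7.12% lay at 10 to 40%, 25.1% at 40 to 80%, 51.1% at 80 to 95% and 10.8% at 95% or more. The share below 10% was 30.5% among near intergenic cytosines and 35.01% inside transcripts. It fell with distance among the far cytosines, from 7.72% to 5.61% and 3.65%, while the share at 80 to 95% rose from 46.0% to 50.7% and 59.2%.

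**Figure D2:**
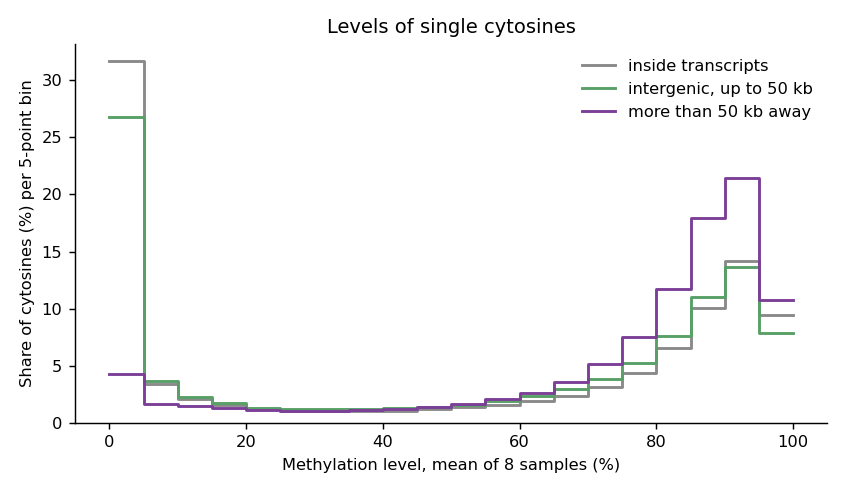
Share of cytosines (%) in each 5-point bin of methylation level (%, mean of 8 samples), for cytosines inside transcripts, intergenic up to 50 kb away, and more than 50 kb away. The lowest bin held 4.26% of the far cytosines, and 5.91% of them were below 10% against 30.5% of the near intergenic ones.

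Chromosomes differed more than the samples did. The far level was lowest on chromosome 17 (69.4%), chromosome 8 (71.03%) and chromosome 2 (71.7%), and highest on chromosome 15 (77.5%), chromosome 6 (77.5%) and chromosome 1 (77.2%). Chromosome 17 carries in its reference sequence a copy of ribosomal DNA, annotated as the 18S pseudogene Rn18s-rs5, and 10.8% of its far cytosines lay in low clusters against 1.88 to 6.002% on the other chromosomes. Outside the low clusters chromosome 17 was at 75.9%. Over the 19 chromosomes the level went with the share of soft-masked cytosines (Pearson's r = 0.84, Spearman's rho = 0.86), given as a description, since all points come from the same 8 libraries.

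On each of the 19 chromosomes the arsenic mean was below the control mean, with the smallest difference on chromosome 10 (-0.118 points) and the largest on chromosome 17 (-0.405 points). Outside the low clusters chromosome 17 differed by -0.233 points, and chromosome 8 then had the largest difference (-0.395 points). The chromosomes share their samples, so they are not independent. The groups did not overlap on 3 chromosomes. Chromosome 17 had 69.6% ± 0.216 in the control and 69.2% ± 0.155 in the arsenic group, chromosome 9 had 73.2% ± 0.138 and 72.8% ± 0.146, and chromosome 2 had 71.8% ± 0.106 and 71.5% ± 0.170 (SD, n = 4 each). None of the 19 passed the threshold of 0.05 after adjustment, where the lowest value was 0.155 (exact permutation test). At unadjusted p, 3 of 19 were at or under 0.05.

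The difference between groups was then set beside that of other sequence. Near intergenic cytosines differed by -0.304 points, with no overlap of the groups (p = 0.0286, exact permutation test). The gap between far and near cytosines was 22.1 points ± 0.135 in the control and 22.2 ± 0.0375 in the arsenic group (SD, n = 4 each), a difference of 0.0379 points (exact permutation p = 0.6). Of 6 such contrasts between classes of cytosines, none passed after adjustment, with 0.129 as the lowest value (exact permutation test). Unmasked far cytosines differed by -0.392 points and soft-masked ones by -0.0862, and this contrast of -0.306 points had p = 0.0571 before adjustment (exact permutation).

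Among the far cytosines of each level class, the groups separated only at 10 to 40%. There the control samples averaged 24.7% ± 0.715 and the arsenic samples 23.2% ± 0.410 (SD, n = 4 each), a difference of -1.57 points (p = 0.0286 and 0.143 after adjustment over 5 classes, exact permutation test). The share of far cytosines below 10% went the same way. It was 5.93, 5.97, 6.16 and 6.30% in the control samples and 6.36, 6.43, 6.47 and 6.35% in the arsenic samples, so every arsenic sample was above every control sample. The means were 6.09% ± 0.174 and 6.40% ± 0.0535 (SD, n = 4 each), a difference of 0.310 points (p = 0.0286, exact permutation test). Among cytosines with 20 or more reads in all samples the difference was 0.299 points and the p rose to 0.0571 (exact permutation). It was also 0.0571 (exact permutation) when any single arsenic sample was left out, with differences of 0.289 to 0.326 points, although the groups still did not overlap.

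Low cytosines lay next to each other. Of the low far cytosines with another covered CpG within 500 bases, 60.7% had a nearest neighbour that was also low, against 6.17% of all far cytosines. Of 15582 low cytosines, 8546 (54.8%) fell into 504 clusters, defined as at least 5 CpGs with gaps of at most 500 bases. A cluster spanned 303 bases at the median (49 to 3114) and held 8 low CpGs at the median (5 to 97). Only 4.05% of the low cytosines in clusters were soft-masked, against 41.3% of all far cytosines, and 87 of the 504 clusters (17.3%) met the usual measures of a CpG island, which are over 200 bases, a GC share above 50% and an observed to expected CpG ratio above 0.6.

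Clusters became rarer with distance, at 29.4 per 10000 cytosines at 50 to 100 kb, 17.4 at 100 to 250 kb and 6.26 above 250 kb. Measured cytosines thinned out over the same bands, at 506, 369 and 231 per Mb, and the soft-masked share rose. A cluster needs at least 5 covered CpGs close together, and what these trends contribute to its rarity was not tested. The level climbed away from them, from 6.87% inside the spans to 35.4% within 250 bases outside, 56.6% at 250 to 500 bases, 67.7% at 1 to 2 kb and 77.6% beyond 5 kb. With all cytosines in cluster spans left out, the bands were at 74.8, 76.8 and 80.9%, in the same order but closer together. The spans held 5.53% of the cytosines at 50 to 100 kb, 4.04% at 100 to 250 kb and 1.36% above 250 kb. Because spans were chosen for low level, leaving them out narrows the gap between bands by construction. These values were described and not tested.

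No cluster could have a curated RefSeq start, since the rule keeps only cytosines more than 50 kb from such transcripts. Other annotated starts were counted. A predicted RefSeq transcript began within 1 kb of 93 of the 504 clusters and a GENCODE vM21 transcript within 1 kb of 98, and 133 (26.4%) had either. The share was 75% of the 16 clusters with 40 or more CpGs, 33.0% of the 206 with 10 to 39 and 18.8% of the 282 with 5 to 9. No such share for other far stretches is set beside these, so they are not read as few or many. RefSeq listed an enhancer or other functional element in 11 clusters and a pseudogene in 10.

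The cluster with the most CpGs, 97 over 2402 bases on chromosome 13 (chr13:3358430-3360831), lay 117 kb from 2810429I04Rik and 169 kb from Speer6-ps1, over the pseudogene Gm16505. Its low cytosines averaged 2.15% ± 1.28 in the control and 1.99% ± 1.29 in the arsenic group (SD, n = 4 each). The cluster on chromosome 14 (chr14:100284693-100287063, 89 CpGs) lay 135 kb from the curated form of Klf12, which codes for a Krüppel-like transcription factor, and 911 kb from Prr30. Predicted RefSeq and GENCODE transcripts of Klf12 itself and of the non-coding Gm41231 start within 1 kb of it. The cluster is thus far from the curated form of Klf12 and near the start of another. It stood at 1.47% ± 0.685 and 1.11% ± 0.246 (SD, n = 4 each), and the 6 far cytosines within 5 kb around it at 79.2%.

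On chromosome 10 a cluster of 81 CpGs (chr10:120551851-120553325) lay 75.4 kb from Hmga2, the gene of a chromatin protein of early development, and 212 kb from 4921513I03Rik. It had no transcript start within 1 kb and overlapped an annotated enhancer. The level was 1.45% ± 0.752 and 1.17% ± 0.357 (SD, n = 4 each), and 19 cytosines around it averaged 59.8%. On chromosome 17 the ribosomal DNA copy (chr17:39845354-39848467) held 93 low CpGs, 102 kb from Esp38 and 200 kb from Esp15, genes of secreted exocrine gland peptides. Of the 443 cytosines covered in that span only 23.9% were low and the mean was 20.05%, with coverage of up to 3629 reads in a sample. Its low cytosines were at 6.33% ± 1.52 in the control and 4.86% ± 0.562 in the arsenic group (SD, n = 4 each).

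The cluster on chromosome 12 with 81 CpGs (chr12:20196418-20197385) was also among the 3 farthest from genes, at 607 kb from 1700030C10Rik and 764 kb from Gm5784. Its 134 covered cytosines were all low, at 1.16% ± 0.189 and 1.47% ± 0.744 (SD, n = 4 each). It was not alone. By blastn, 16 clusters on chromosome 12 between 17.99 and 23.80 Mb shared sequence, with 81.2 to 99.3% identity between matching pairs, and 15 of the 16 had a GENCODE or predicted RefSeq start within 1 kb. Their mean levels ran from 1.31 to 8.02%. In all, 39 of the 504 clusters fell into 9 such families, of which the next largest had 5 members on chromosome 14. Reads of near-identical copies may be placed on the wrong copy, so the level of a single copy in a family is uncertain.

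The other clusters farthest from genes were on chromosome 18 (chr18:55695458-55695797, 10 CpGs), 617 kb from Gm4221 and 705 kb from Gramd3, and on chromosome 19 (chr19:15339469-15340569, 11 CpGs). The latter lay 565 kb from Psat1, the gene of an enzyme of serine synthesis, and 741 kb from Tle4, that of a transcriptional corepressor. Low cytosines averaged 2.30% ± 1.12 and 3.00% ± 1.15 on chromosome 18, and 4.57% ± 4.25 and 4.95% ± 2.11 on chromosome 19 (SD, n = 4 each). On chromosome 19 only 46.2% of the cytosines in the span were low.

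**Figure D3:**
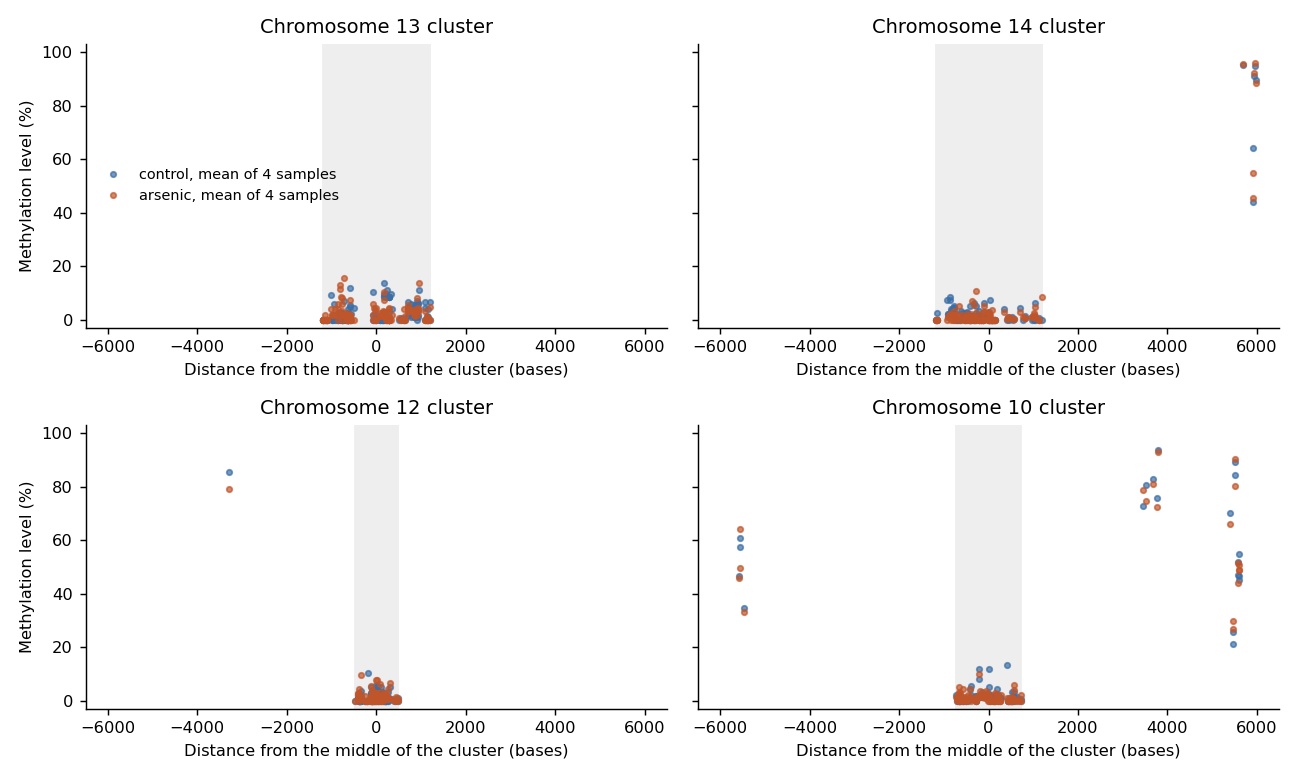
Methylation level (%) of each far cytosine, as the mean of the 4 control and the 4 arsenic samples, against distance in bases from the middle of the 4 low clusters shown by sequence above; grey marks the cluster. Inside the grey spans every group mean was below 20%, and the cytosines within 5 kb of the chromosome 14 and 10 clusters averaged 79.2 and 59.8%.

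The arsenic mean was above the control mean in 223 of the 504 clusters, and the median difference was -0.186 points, with a range from -8.20 to 5.48. In all spans together, low and other cytosines included, the level was 7.11% ± 0.158 in the control and 6.64% ± 0.199 in the arsenic group (SD, n = 4 each). For the far cytosines below 10% as a class the difference was -0.288 points (p = 0.0571, and 0.143 adjusted, exact permutation test).

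A different kind of low cytosine stood alone. Outside CCGG, 1870 low far cytosines (12.0% of the low ones) had a nearest covered CpG at 80% or more. Their median level was 0.219%, below the 1.97% of low cytosines in clusters, and 904 of them (48.3%) had no methylated read in any of the 8 samples, against 13.1% of low cytosines in clusters. Where both strands were covered, 498 of 534 such CpGs were low on both. The level at the mitochondrial cytosines, the read-out of unconverted or miscalled bases, was 1.77 to 2.07%. The median of low cytosines in clusters lay in that range, so it is not read as residual methylation. The mice were C3H/HeN and the reference genome is C57BL/6J. A CpG of the reference that C3H/HeN lacks would be read as unmethylated, and no genotype was used here to tell such positions apart.

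The 2 strands of a far CpG mostly had close levels, with a median absolute difference of 3.10 points outside CCGG and 4.27 points inside it, but a minority of CCGG sites split widely. A methyl group on a CpG is normally present on both strands, so strand pairs give a check within each library. Outside CCGG, 133 of 64475 far CpGs covered on both strands (0.206%) differed by more than 50 points. Inside CCGG it was 1128 of 6306 (17.9%), with 17.73 to 18.05% in single samples. The same share was 7.44% among near intergenic and 5.32% inside transcripts. Of 1136 far CCGG sites with a strand below 10%, 888 differed by more than 50 points.

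The recurring contexts show this copy by copy. Context A was measured at 2325 far cytosines at 2053 CpGs on all 19 autosomes, all soft-masked. On the printed strand 247 of 621 copies (39.8%) were below 20%, while on the other strand 3 of 1704 (0.176%) were. Of 272 CpGs measured on both strands, 177 were low on the printed strand, and 175 of these were at 70% or more on the other. Context B, at 1895 cytosines, had 116 of 451 copies below 20% on the printed strand and 0 of 1444 on the other, which allows a share of up to 0.208% for counting error alone. Context F, chosen after its values were seen, shares most of its sequence with B and is not a separate example. In it, 145 of 177 copies (81.9%) were below 20% on the printed strand, and 181 of 183 (98.9%) were at 70% or more on the other.

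Contexts without CCGG did not split in this way. Context C was below 20% at 3 of 320 copies on the printed strand and 4 of 310 on the other, context D at 4 of 289 and 2 of 275, and context E at 5 of 384 and 1 of 142. Contexts C and D were highly methylated, with medians of 92.2% and 91.2% over their 630 and 564 cytosines. Context E was lower, at 81.1%, and its strands differed in median, 82.7% against 71.9%. The part that the enzyme site plays in single-strand low levels was not tested, and leaving out all cytosines in CCGG moved the far level from 74.4 to 73.0% and the difference between groups to -0.240 points.

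**Figure D4:**
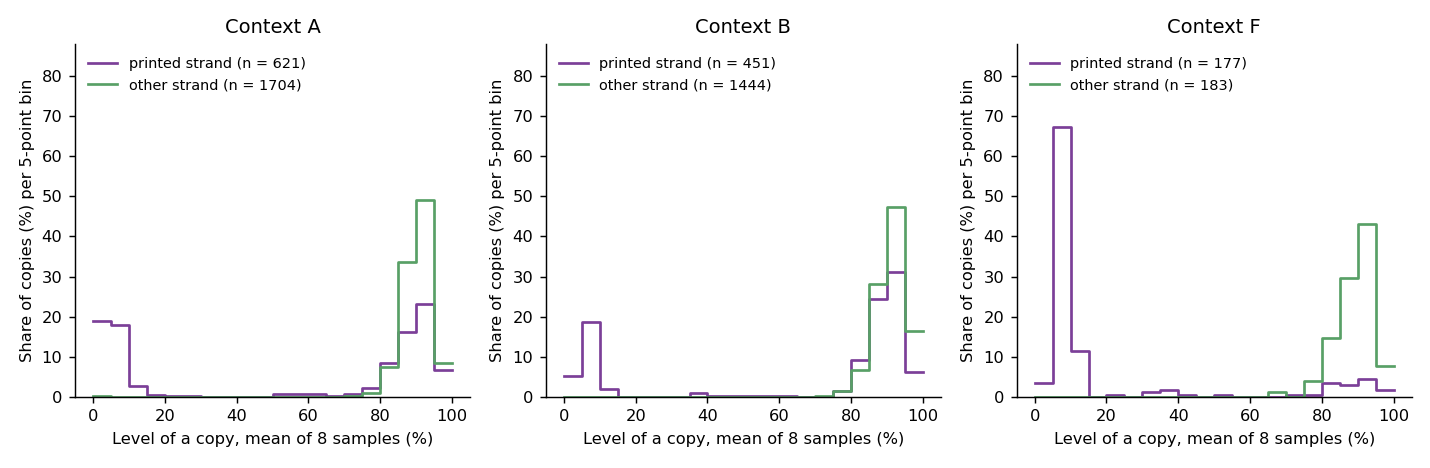
Share of copies (%) in each 5-point bin of level (%, mean of 8 samples) for contexts A, B and F (F chosen after its values were seen), by the strand measured. Copies below 20% make up 39.8% (A), 25.7% (B) and 81.9% (F) on the printed strand, and 0.176%, 0% and 0% on the other.

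The 5 most frequent contexts did not differ between groups beyond their spread. Context A was at 80.8, 80.6, 81.2 and 81.1% in the control and 80.9, 80.9, 80.5 and 80.9% in the arsenic samples. The differences for A to E ran from -0.210 points for E to 0.448 points for C, with an adjusted p of 0.857 for each (exact permutation test over 5 contexts).

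Single cytosines were tested next, over all 2130064 cytosines with a likelihood-ratio test of pooled reads, and those with q of at most 0.01 and a difference of at least 10 points are called differentially methylated cytosines (DMCs). Among the far cytosines 989 were hypoDMCs, lower in the arsenic group (0.375%, against 0.323% of all cytosines), and 839 were hyperDMCs (0.318%, against 0.228%). HypoDMCs made up 54.1% of far DMCs, 59.1% of near intergenic DMCs and 60.2% of those inside transcripts. By band their share was 58.6, 53.8 and 48.5%. In soft-masked sequence there were 382 hypoDMCs and 382 hyperDMCs, and in unmasked sequence 607 and 457. At 10 to 40% methylation 139 of 177 DMCs were hypoDMCs.

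The pooled test counts reads and not samples, and the far DMCs must be read with that. Reads varied between samples of a group more than counting alone gives, with a median dispersion of 1.68 over the far cytosines, where 1 is counting error only. A quasi-binomial test that scales by this dispersion called 0 far DMCs at the same thresholds, with 9947 far cytosines (3.77%, against 3.87% of all) under an unadjusted p of 0.05. With limma on log2 ratios of methylated to unmethylated reads, the count was also 0, with 14294 (5.42%, against 5.11% of all) under 0.05. Of the 1828 far DMCs, 825 (45.1%) had groups that did not overlap in the direction called. The same share was 45.6% of near intergenic DMCs and 42.8% of those inside transcripts. Over all far cytosines every arsenic sample was below every control sample at 3944 (1.497%, against 1.21% of all), and above at 3185 (1.21%, against 0.892%).

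The opposite strand of a DMC differed in the called direction about as often as against it. Of the far DMCs, 1245 were covered on both strands, and the opposite strand changed in the same direction in 626 (50.3%). It was itself a DMC in 18. The median difference was 15.5 points on the called strand and 0.0624 points, in the direction called, on the other. A far DMC at another CpG within 500 bases was present for 299 far DMCs (16.4%), and in 249 of the 299 all such neighbours had the same direction. Nearby cytosines can be read on the same fragments, so these are not independent.

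**Figure D5:**
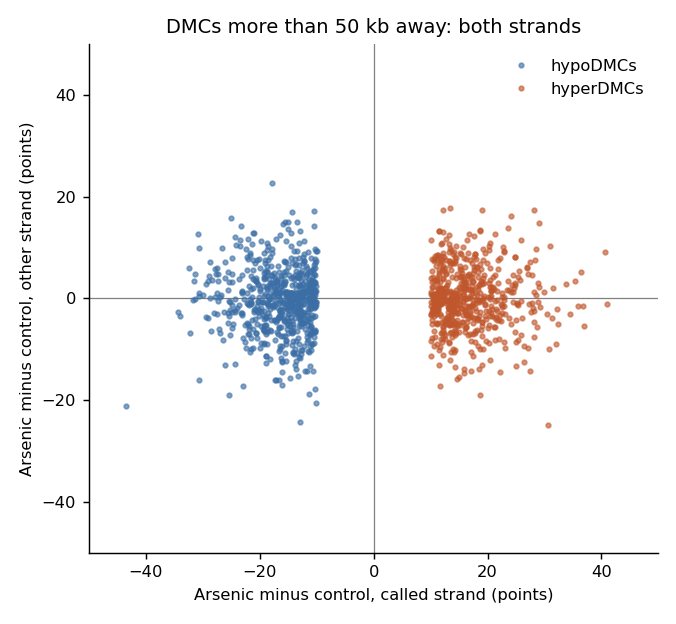
Difference between groups (arsenic minus control, percentage points of pooled reads) on the called strand of 1245 far DMCs against that on the other strand of the same CpG. The gap around 0 on the horizontal axis is the threshold of 10 points, and on the vertical axis the points lie about evenly above and below 0, with 626 in the direction called.

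The largest falls without overlap of the groups were on chromosomes 12, 6, 2 and 13. At chr12:71778198-71778198, plus strand, 52.9 kb from Daam1, the gene of a formin that assembles actin, and 222 kb from 4930404H11Rik, the level was 100, 88.9, 87.5 and 87.5% in the control and 40, 50, 16.7 and 61.1% in the arsenic samples. All arsenic samples were lower (difference -43.4 points of pooled reads, q = 4.85e-06 by the likelihood-ratio test over all cytosines), and coverage was 10 to 36 reads. The other strand of the same CpG differed by -21.2 points (q = 0.0709). With limma the adjusted p was 0.932. The sites on chromosome 6 (51039582, 129 kb from Gm31579 and 230 kb from Mir148a, the gene of a microRNA, and inside predicted transcripts of Gm31746 and Gm46959), chromosome 2 (172737562, between Bmp7, a growth factor gene, at 130 kb and Tfap2c, a transcription factor gene of the early germ line, at 179 kb) and chromosome 13 (55898344, 66.9 kb from Pitx1, a homeobox gene, and 175 kb from Macroh2a1, a histone variant gene) differed by -38.5, -36.1 and -34.8 points. These 3 calls each hung on single samples. The chromosome 6 site missed the threshold without control replicate 4 (-29.9 points, q = 0.0292), and the chromosome 2 site without control replicate 3 (-33.8, q = 0.0111) or arsenic replicate 2 (-30.8, q = 0.0272). The chromosome 13 site missed it without any of the samples but control replicate 1 and arsenic replicate 3, with -37.2 to -28.3 points in those 6 fits.

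The largest rises were on chromosomes 9, 8, 3 and 19. At chr8:117954014-117954014, minus strand, 152 kb from Mphosph6 and 330 kb from Cdh13, a cadherin gene, the control samples were at 16, 25.6, 50 and 29.4% and the arsenic samples at 67.9, 76.7, 67.9 and 54.5%. Every arsenic sample was above every control sample, by 41.0 points of pooled reads (q = 5.27e-07, likelihood-ratio test), and the other strand of this CpG differed by -1.12 points. At chr3:119946648-119946648, plus strand, in soft-masked sequence 163 kb from Ptbp2, a splicing factor gene, and 508 kb from 6530403H02Rik, the control samples were at 60, 55, 38.9 and 33.3% and the arsenic samples at 87.1, 90.6, 79.3 and 95.7%. The difference was 40.6 points (q = 5.52e-10, likelihood-ratio test) on this strand and 9.21 points (q = 0.0827) on the other. The site on chromosome 9 (74479611, in CCGG, 196 kb from Wdr72 and 369 kb from Gm16551) and that on chromosome 19 (56096338, 163 kb from Tcf7l2, a Wnt pathway transcription factor gene, and 192 kb from Habp2) differed by 41.2 and 38.3 points. The chromosome 19 site missed the threshold without control replicate 1 or 4 (30.4 and 34.7 points) and without arsenic replicate 3 or 4 (36.4 and 31.6 points). None of the 8 named sites passed with limma, where the lowest adjusted p was 0.921. Cytosines within 500 bases of the 7 sites that had any differed by -21.9 to 4.75 points. The lowest coverage in a sample was 20 reads at the chromosome 8 site and 10 to 12 reads at the others. With at least 20 reads required in every sample, only the chromosome 8 site was still tested, and it kept its call (q = 3.33e-07, likelihood-ratio test).

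No longer stretch changed past the threshold. The 30254 windows of 1 kb with at least 3 cytosines, all of them far, were tested with the quasi-binomial model, in 198209 windows in all. There were 0 lower and 0 higher far windows at q of at most 0.01 and 10 points (0% of all windows in either direction), and the lowest q among far windows was 0.977. At unadjusted p under 0.05 there were 1294 far windows (4.28%), against 4.51% of all. The arsenic group was lower in 55.0% of the far windows and in 56.4% of all windows.

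The longest gene deserts were highly methylated in both groups. Among stretches between neighbouring curated transcripts with at most 5% unsequenced bases, the longest was 4.02 Mb on chromosome 14, between Olfm4 and Gm32455, with 916 cytosines and 1 low cluster. Its level was 80.6, 80.1, 82.3 and 81.7% in the control and 80.8, 80.6, 81.5 and 80.8% in the arsenic samples, and the groups overlapped. The next were on chromosome 2 between Lrrc4c and Iftap (77.1% ± 0.921 and 77.4% ± 0.384), chromosome 1 between Gm20268 and Cdh20 (84.5% ± 0.719 and 84.5% ± 0.508), chromosome 17 between Nudt12os and Efna5 (80.3% ± 1.47 and 80.6% ± 0.537) and chromosome 15 between Cdh6 and Cdh9 (80.6% ± 0.287 and 80.4% ± 0.651; SD, n = 4 each). Over the 5 deserts the difference between groups ran from -0.252 to 0.310 points, and the share of cytosines below 10% from 0.476 to 5.75%.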

How the data were processed

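DNA was digested with MspI and sequenced as RRBS libraries from 4 control and 4 arsenic samples. According to the submitters' processing notes and the study's methods, the authors trimmed reads with Trim Galore 0.6.5, mapped them to mm10 with Bismark 0.22.3 and joined the samples with methylKit 1.22.0, keeping strands apart and cytosines with at least 10 reads in every sample. The deposited table holds raw read counts per cytosine (all, methylated and unmethylated), not normalized. PCR duplicates cannot be seen in RRBS, so counts are not independent molecules.

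Level was computed as the percent of methylated reads, averaged over cytosines with equal weight. Distances were measured to the bodies of curated RefSeq transcripts of GRCm38.p6, and sequences are from the same RefSeq genome. Every pooled sample was 1 replicate, and nothing states whether pools shared litters. Group means were compared by exact permutation tests with Benjamini-Hochberg adjustment. DMCs used the likelihood-ratio test of a logistic regression on pooled counts, as methylKit does. Alternatives were a quasi-binomial test and limma 3.58.1 (log2 ratios, 1 read added to each count, R 4.3.3), and clusters were compared with blastn 2.17.0 (80% identity or more over at least 50% of the shorter cluster). The other steps used Python 3.11.15, numpy 2.4.6, pandas 2.3.3 and scipy 1.17.1. The tests were checked on simulated data, limma only on counts without added spread between samples. Whether limma could find a change at the spread seen here was not tested.

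Members and lists were chosen with earlier results of these data known. Named clusters were the 5 with most CpGs and the 3 farthest from genes with 10 or more CpGs. Named DMCs were the 4 largest falls and 4 largest rises without overlap of the groups. Named contexts were the 5 most frequent, with context F and the deserts added after the values were seen.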

Additional observations from a re-analysis of the deposited data

Results flagged for a closer look

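In 118 groups of 4 samples examined, a sample stood apart from the other 3 in 7, where chance alone is expected to give about 1 in 20 groups (5.90 of 118). None was a test between groups, and no explanation was examined.

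Control replicate 3 was high at the far cytosines of chromosome 13, at 72.97% with the others at 72.55 to 72.62%, and at unmasked far cytosines, at 68.02% with the others at 67.71 to 67.75%. Arsenic replicate 1 was high on chromosome 19, at 75.09% with the others at 74.82 to 74.83%, and in the chromosome 1 desert between Gm20268 and Cdh20, at 85.28% with the others at 84.16 to 84.35%. Arsenic replicate 3 was low at context A, at 80.51% with the others at 80.87 to 80.89%. Arsenic replicate 4 was low in the chromosome 17 desert between Nudt12os and Efna5, at 79.76% with the others at 80.74 to 80.90%. Control replicate 1 was at 100% at the chromosome 12 hypoDMC near Daam1, with the others at 87.5 to 88.9%.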

How the results depend on the processing

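Alternatives were read against the far level difference of -0.266 points. It kept its sign under every one run, from -0.136 with predicted transcripts counted to -0.406 weighted by coverage (where the 100 to 250 kb band was at -0.805 and far minus near at 0.251, neither past 0.05), and passed 0.05 only with distance taken to transcript starts (-0.345, exact permutation p = 0.0286), which takes in cytosines inside transcripts (509555 far cytosines). In that setting the bands at 50 to 100 and 100 to 250 kb were at -0.405 and -0.399 (adjusted exact permutation p = 0.0429 for each), and the far minus near difference was -0.0420, with the sign changed. With predicted transcripts counted the band above 250 kb was at 0.0677, also with the sign changed, far minus near was 0.186, DMCs were 484 hypo and 484 hyper, and low clusters 132, from fewer cytosines (139838). DMCs were 94 hypo and 90 hyper at 25 points or more, and 0 and 0 with the overdispersion scaling and with limma. Low clusters were 818 with a limit of 20%. The low share differed by 0.299 points at coverage of at least 20 and by 0.309 at 30 (exact permutation p = 0.0571 for each). Leaving out all cytosines in CCGG or the ribosomal DNA copy, both chosen after seeing the data, moved no level or low share difference across 0.05. Without the cytosines in CCGG, DMCs were 818 hypo and 717 hyper, and low clusters 422. The named rise on chromosome 9, which sits in CCGG, then dropped out.

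Leaving out each sample in turn gave far differences from -0.347 to -0.175, the 3 bands, from nearest to farthest, from -0.425 to -0.284, -0.427 to -0.252 and -0.165 to 0.0985 (without arsenic replicate 1 the first and second passed, at an adjusted exact permutation p of 0.0429), chromosomes lower in the arsenic group from 17 to 19, far minus near from -0.000226 to 0.0887, the 80 to 95% class from -0.152 to 0.0692, soft-masked from -0.174 to 0.0347, CpG-dense from -0.193 to 0.00548, the low share from 0.255 to 0.380 (exact permutation p = 0.0571 with any single arsenic sample left out, still without overlap), hypoDMCs from 949 to 1094 and hyperDMCs from 784 to 909. The cause of these changes was not tested.

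Replicate numbers were not taken to pair the samples. Deviations of same-numbered samples at single cytosines correlated from -0.00262 to 0.00643, and those of differently numbered samples from -0.00557 to 0.00942. Counting error in reads adds to such deviations, so this check cannot exclude a pairing. With the replicate block the low share difference was 0.310 (with the smallest exact sign-flip p that 4 pairs allow, which is above 0.05), the far level -0.266 (exact p = 0.25), and DMCs 662 hypo and 575 hyper.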
